A study of Mesocricetus auratus with 14 samples.

Results

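The clock output factors described here are the transcription factors that carry the circadian clock's timing to other liver genes: the PAR bZIP proteins Dbp, Tef and Hlf, their repressor counterpart Nfil3, the nuclear receptor Rora, and the repressors Bhlhe40, Bhlhe41 and Ciart. They were chosen by gene symbol in the authors' expression table, and 6 of the 8 had a row among its 10023 genes. Bhlhe41 and Ciart had none and were not analysed here. All 6 passed the filter on low counts and were tested among 12166 genes.

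The livers were those of golden hamsters (Mesocricetus auratus), all on a high-fat diet according to the labels, with RNA sequenced from 7 control samples and from 7 samples treated with the compound DC371739, named only by that code. Neither the labels nor the tables give strain, age, sex, dose, vehicle, duration or the hour of tissue collection. They also do not tie samples to animals, so the p-values here speak only for the spread among these samples. Of the 10 hepatocyte markers listed, 9 had a row, and albumin (Alb) stood at 106050 ± 11675 CPM in control and 99251 ± 6648 CPM in treated samples (counts scaled to a library total of 1e+06, SD, n = 7 each).

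The core clock of a cell is a loop in which Arntl (BMAL1) and Clock activate E-box genes, among them the Per and Cry genes that shut the pair off again. Dbp, Tef and Hlf are driven by that loop and activate genes that carry a D-box element, while Nfil3 binds the same element and represses it; in rodent liver Dbp and Nfil3 are known to peak at opposite times of day. Rora activates genes with a ROR element, Arntl among them, in competition with the repressor Nr1d1 (REV-ERB alpha). Bhlhe40 represses E-box genes. In liver the PAR bZIP factors are known for driving enzymes of drug and haem metabolism.

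Libraries held 13672589 to 23948628 counts. The 3 deepest, with 22152239 counts or more, were control replicates 6 and 7 and replicate 7 of DC371739; the other 11 had 16710097 or fewer. The split was made by total count alone, but with earlier results of these data known. Control replicates 6 and 7 also stood apart from the other controls in the clock output factors except Bhlhe40. Replicate 7 of DC371739 stood clearly apart from the other treated libraries in Dbp only. Each treatment difference was fitted 3 times: over all 14 libraries, over all 14 with a term for depth class, and over the 11 shallower ones (5 control, 6 DC371739). edgeR's quasi-likelihood test called 225 of 12166 genes over all 14 libraries at an adjusted p under 0.05 (1.85%), 151 higher and 74 lower; the split was 223 and 65 with upper-quartile scaling and 124 and 36 with library size alone. It called 12.3% in the class-term fit and 21.5% over the 11 shallower libraries.

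Of the clock output factors, none passed over all 14 libraries with edgeR; Nfil3 and Rora were called lower with DC371739 in the 2 fits that model or leave out the deepest libraries, and Dbp, Tef, Hlf and Bhlhe40 passed in none of the 3 fits. For Nfil3 those 2 fits set apart or drop the 2 lowest controls. Nfil3 averaged 38.8 ± 11.9 CPM in control and 24.3 ± 5.32 CPM in treated samples, and Rora 11.2 ± 1.27 and 8.50 ± 1.18 CPM (SD, n = 7 each). Over all 14 libraries 0 of the 6 factors passed with edgeR, against 1.85% of all genes, and 2 had an unadjusted p under 0.05; DESeq2 and limma-voom with sample quality weights each called those 2, Nfil3 and Rora, lower on the same libraries, where they called 2.74% and 10.9% of all genes lower. With the class term, and likewise over the 11 shallower libraries, edgeR called 2 of 6, again Nfil3 and Rora and both lower, against 6.70% and 10.5% of all genes called lower in those fits.

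**Figure D1:**
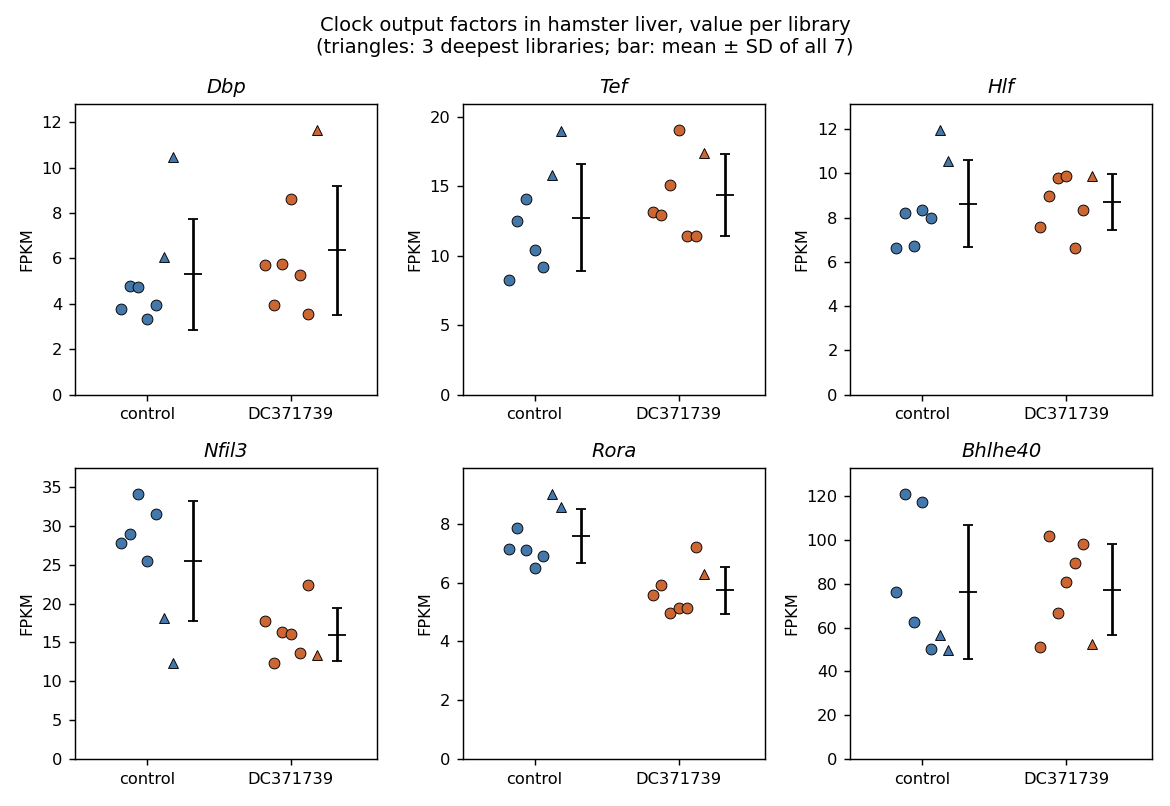
Level of the 6 clock output factors in each library, in FPKM as deposited by the authors (vertical axes, each starting at 0), for control and DC371739 samples. Circles are the 11 shallower libraries, triangles the 3 deepest, and bars the mean ± SD of all 7. Nfil3 circles separate by group (25.5 to 34.1 against 12.3 to 22.4 FPKM), while the 2 control triangles of Nfil3 lie at 18.2 and 12.4 FPKM.

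Levels of different genes can be set side by side only per length. FPKM are the authors' count per exon length and per 1 constant for each library, which was not its total count. Averaged over the 14 libraries in FPKM, Bhlhe40 was the most abundant at 76.8 ± 25.2, followed by Nfil3 at 20.7 ± 7.54, Tef at 13.6 ± 3.40, Hlf at 8.68 ± 1.59, Rora at 6.67 ± 1.27 and Dbp at 5.82 ± 2.61. Bhlhe40 exceeded Nfil3, and Tef exceeded Hlf, in all 14 libraries. The order of the other neighbours was not fixed: Nfil3 exceeded Tef in 10 of 14 libraries and Hlf exceeded Rora in 12. Rora exceeded Dbp in 6 of 7 control libraries and in 2 of 7 DC371739 libraries.

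Dbp, whose transcript is among the strongest oscillators of rodent liver, had 87 to 411 counts per library. Its lowest, median and highest values were 5.32, 7.56 and 16.5 CPM in control and 5.69, 9.11 and 18.1 CPM in treated samples. The groups overlapped over most of their range, and the top value of each came from a deepest library. The log2 fold change was 0.26 (SE 0.28, edgeR adjusted p = 0.646), with an approximate 95% interval of -0.29 to 0.81. Over the 11 shallower libraries it was 0.42 (SE 0.20, adjusted p = 0.142), with 5 control libraries at 5.32 to 7.63 CPM and 6 DC371739 libraries at 5.69 to 13.8 CPM. The spread between the DC371739 livers was the wider there, with a coefficient of variation of 32.9% against 15.3%.

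Tef, the most abundant of the 3 PAR bZIP activators per length, ranged from 25.9 to 58.9 CPM in control (median 39.1) and from 35.6 to 60.1 CPM in treated samples (median 41.4). The lower end differed more than the upper: 3 control libraries lay below every DC371739 library. The log2 fold change was 0.17 (SE 0.18, adjusted p = 0.624, approximate 95% interval -0.17 to 0.52), and 0.35 (SE 0.16, adjusted p = 0.127) over the 11 shallower libraries. Hlf ranged from 28.4 to 50.0 CPM in control (median 35.0) and from 28.2 to 42.4 CPM in treated samples (median 38.3). Its log2 fold change was 0.02 (SE 0.13, adjusted p = 0.960, approximate 95% interval -0.25 to 0.28) and its sign turned when any of 6 single libraries was left out. For Dbp, Tef and Hlf alike, 5 of 7 DC371739 libraries lay above the control median.

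Nfil3, the repressor at the D-box, had control values of 42.5, 44.0, 52.1, 38.9 and 48.3 CPM in replicates 1 to 5 and of 27.2 and 18.6 CPM in the deeper replicates 6 and 7. DC371739 replicates 1 to 6 stood at 27.0, 18.7, 24.9, 24.7, 20.7 and 34.2 CPM, and the deeper replicate 7 at 19.8 CPM. Every treated library, 7 of 7, lay below the median of the controls. Among the 11 shallower libraries the groups did not overlap, a separation with DC371739 wholly lower that 5.29% of all tested genes showed. The 2 deeper controls lay within the DC371739 range or just under it.

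The log2 fold change of Nfil3 was -0.67 (SE 0.20, adjusted p = 0.0778) over all 14 libraries. It was -0.72 (SE 0.14, adjusted p = 0.00810) with the class term and -0.85 (SE 0.13, adjusted p = 0.00147) over the 11 shallower libraries, where it is a level of 0.557 times control. The call over the 11 held whichever of them was left out, with adjusted p of 0.000611 to 0.00592. Over 14 libraries Nfil3 passed without control replicate 7 (adjusted p = 0.0145) and on leaving out no other single library. The authors' deposited table gives Nfil3 a log2 fold change of -0.67 and an adjusted p of 0.0745.

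Rora, the activator at ROR elements, had control values of 10.6, 11.7, 10.6, 9.66, 10.3, 13.1 and 12.6 CPM in replicates 1 to 7. DC371739 replicates stood at 8.28, 8.78, 7.35, 7.69, 7.56, 10.7 and 9.12 CPM. The groups overlapped through DC371739 replicate 6 alone: the other 6 DC371739 libraries lay below the lowest control. The deeper libraries here were the higher ones of the control group, the opposite of Nfil3.

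The log2 fold change of Rora was -0.40 (SE 0.11, adjusted p = 0.0608) over all 14 libraries. It was -0.36 (SE 0.10, adjusted p = 0.0244) with the class term and -0.32 (SE 0.11, adjusted p = 0.0490) over the 11 shallower libraries. The last call stayed under 0.05 when control replicate 4 or DC371739 replicate 6 was left out. It was lost on leaving out any of control replicates 1, 2, 3 and 5, or any of the DC371739 replicates 1 to 5, with an adjusted p of at most 0.112. Over 14 libraries Rora passed without DC371739 replicate 7 (adjusted p = 0.0344) and on leaving out no other single library. With 121 to 265 counts per library, Rora and Dbp rested on the fewest counts of the 6. The authors' deposited table gives Rora a log2 fold change of -0.40 and an adjusted p of 0.0652.

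Bhlhe40 (DEC1), a repressor of E-box genes that is also induced by hypoxia and cytokines, spread widely within both groups. It ranged from 115 to 281 CPM in control (median 146) and from 119 to 237 CPM in treated samples (median 190). The 2 highest values of all 14 libraries were those of control replicates 2 and 4. Its log2 fold change was 0.02 (SE 0.23, adjusted p = 0.976), with an approximate 95% interval of -0.44 to 0.47, and -0.06 in each of the other fits.

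**Figure D2:**
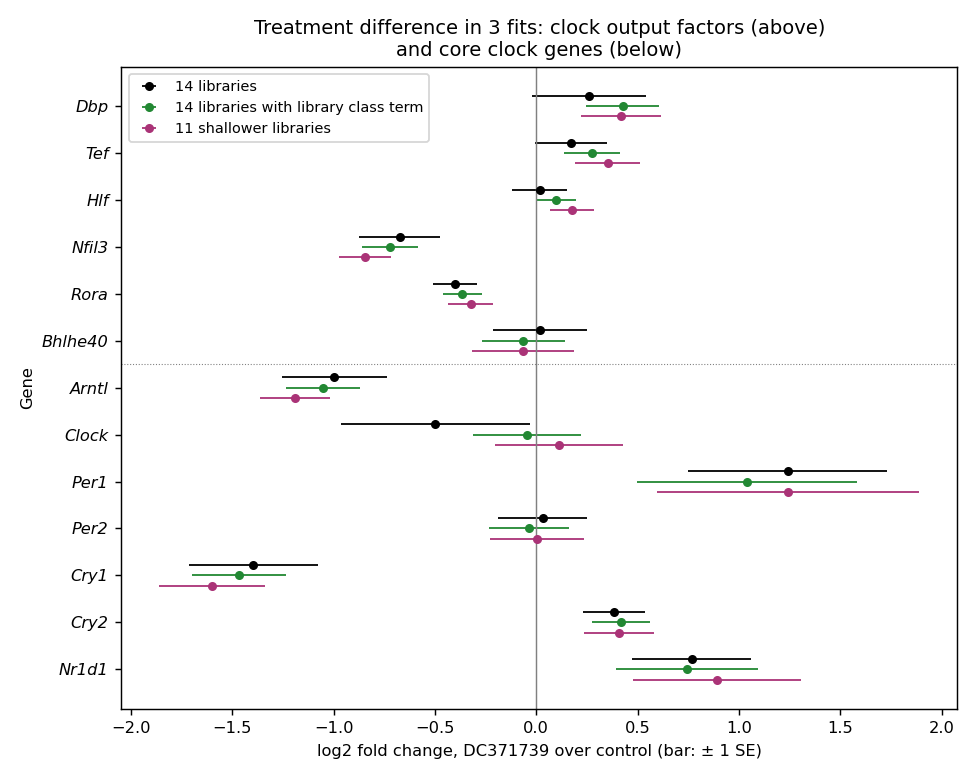
Log2 fold change of DC371739 over control (horizontal axis) with ± 1 SE for the 6 clock output factors and 7 core clock genes, from edgeR over 14 libraries, over 14 libraries with the library class term, and for the 11 shallower ones. Nfil3 (-0.67 to -0.85), Rora (-0.32 to -0.40), Arntl and Cry1 lie to the left of 0 in each fit, and Bhlhe40 and Hlf lie close to it.

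The 3 deepest libraries differed from the other 11 in most of these genes. In the fit with this term, Dbp was 1.01 higher on the log2 scale in the deepest libraries (SE 0.20, adjusted p = 0.000739), Tef 0.52 higher (adjusted p = 0.0161) and Hlf 0.41 higher (adjusted p = 0.00859). Nfil3 was lower there by a log2 difference of -0.73 (adjusted p = 0.00311) and Bhlhe40 by -0.70 (adjusted p = 0.0411), and Rora stood at 0.22 (adjusted p = 0.119). That is 5 of 6 factors called, where 46.4% of all tested genes were. In this fit the 3 activators were thus higher and their D-box counterpart lower. The deeper controls lay beyond the other controls in each of these genes. Replicate 7 of DC371739 lay above the other treated libraries in Dbp (18.1 against 5.69 to 13.8 CPM). It lay within their range in Tef (53.2 in 35.6 to 60.1), Hlf (41.2 in 28.2 to 42.4) and Nfil3 (19.8 in 18.7 to 34.2). Depth and any other property of these libraries cannot be told apart, and an interaction of treatment with depth class was not tested.

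Transcript levels of the D-box activators and repressor were compared as the summed FPKM of Dbp, Tef and Hlf over the FPKM of Nfil3, with no test. Protein and binding at the D-box were not measured. Where the ratio crosses 1 depends on the exon lengths, from 1971 bases for Nfil3 to 5528 for Hlf. In the 5 shallower controls the ratio was 0.668 to 0.880, so that the FPKM of Nfil3 exceeded that of the 3 activators together. In the 6 shallower DC371739 libraries the ratio was 1.04 to 2.32, and the summed FPKM of the activators exceeded that of Nfil3 in each. The deepest libraries had ratios of 1.86 and 3.24 in control replicates 6 and 7 and 2.92 in DC371739 replicate 7. The summed activators overlapped between the shallower groups, at 18.7 to 25.5 FPKM in control and 23.3 to 37.5 FPKM in DC371739 samples, while Nfil3 did not.

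**Figure D3:**
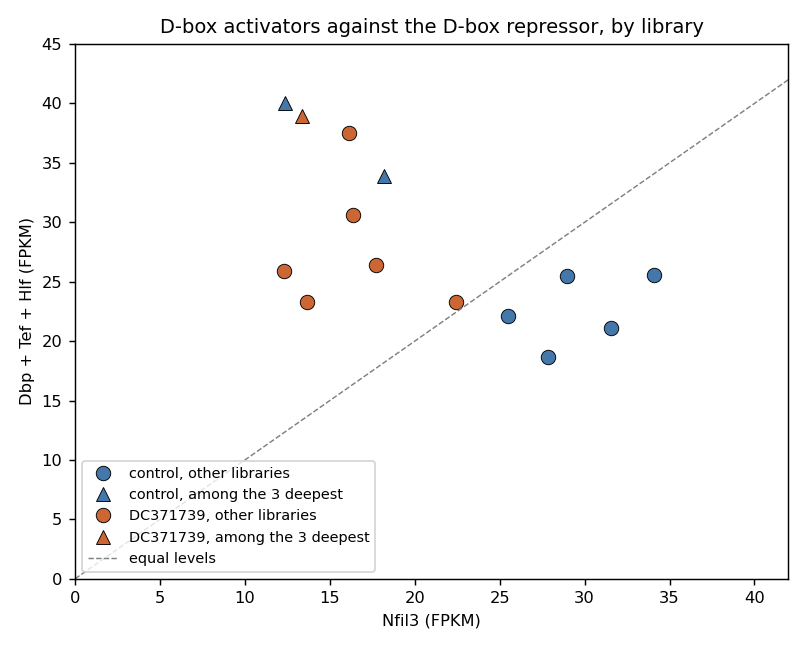
Summed level of the D-box activators Dbp, Tef and Hlf (vertical axis, FPKM) against the repressor Nfil3 (horizontal axis, FPKM), 1 point per library, with a dashed line of equal levels. The 5 shallower controls lie below the line and the 6 shallower DC371739 libraries above it; the 3 deepest libraries (triangles), 2 of them controls, lie at the upper left.

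Between livers of the same group, joint variation of the clock output factors was not established, though a test over 11 libraries cannot show its absence. Over the 11 shallower libraries, with group means removed, none of 15 pairs of factors passed a permutation test after adjustment. The closest pair was Dbp and Tef (Pearson r = 0.745, permutation p = 0.00869, adjusted p = 0.130; Spearman rho = 0.736, permutation p = 0.0176, adjusted p = 0.264), and r was 0.540 without the 2 libraries farthest from the Dbp median. Tef and Hlf had r = 0.467 (permutation p = 0.162, adjusted p = 0.724; rho = 0.655, permutation p = 0.0410, adjusted p = 0.308; r = 0.663 without the 2 farthest from the Tef median). Nfil3 and Dbp, known as opposites in time, had r = 0.0316 (permutation p = 0.947, adjusted p = 0.995; rho = 0.173, permutation p = 0.647, adjusted p = 0.764; r = 0.782 without the 2 farthest from the Dbp median). That last coefficient rests on which libraries are used.

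Over all 14 libraries, with group and library class means removed, the gene whose log2 CPM was most like that of Tef among 10010 others with a symbol was Por, the cytochrome P450 oxidoreductase (r = 0.929), followed by Rhbdd2 (0.875). Por stood in the list of genes known to depend on PAR bZIP factors. The genes most like Dbp were Pgap6 (0.898) and Mrps31 (0.897), those most like Hlf were Slc9a2 (0.837) and Snx7 (0.827), and those most like Nfil3 were Dnajb5 (0.885) and Sesn2 (0.841). Adgra3 (0.857) and Atxn7l1 (0.853) were most like Rora, and Tob1 (0.887) and Klf10 (0.875) most like Bhlhe40. These coefficients are the largest of many computed and are given as a description, with no test.

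**Figure D4:**
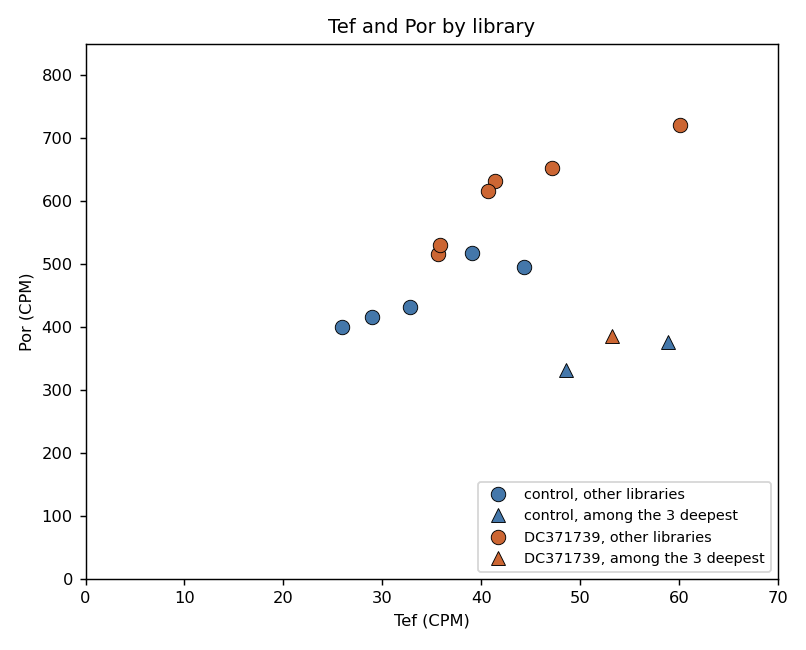
Por against Tef in each of the 14 libraries, both in CPM. Por increases with Tef among the shallower controls and among the shallower DC371739 libraries (517 to 721 CPM), and the 3 deepest libraries (triangles) lie apart with low Por (333 to 385 CPM) at high Tef.

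Among genes known to depend on PAR bZIP factors or Nfil3 in liver, 8 of 12 listed had a row and were tested. None passed over all 14 libraries with edgeR (3 at an unadjusted p under 0.05; DESeq2 called 2 and limma-voom 3), with a median log2 fold change of 0.09 beside -0.02 over all genes. With the class term Por and Ppara rose, 2 of 8 where 5.62% of all genes were called higher. Por, which feeds electrons to the cytochrome P450 enzymes, averaged 424 ± 64.6 CPM in control and 579 ± 111 CPM in treated samples (log2 fold change 0.38, SE 0.09, adjusted p = 0.0195 with the class term, and 0.45, adjusted p = 0.0754, without it). Ppara, the fatty acid receptor, stood at 41.8 ± 15.9 and 70.4 ± 19.2 CPM (0.81, SE 0.25, adjusted p = 0.0490 with the class term, and 0.75, adjusted p = 0.0734, without it). Over the 11 shallower libraries 3 of 8 were called, beside 21.5% of all genes called either way: these 2 rose, and Nr1i3, the xenobiotic receptor CAR, fell (-0.32, adjusted p = 0.0399). Por and Ppara stayed called whichever of the 11 was left out. For Ppara those 11 already lack the highest control, replicate 7 at 74.1 CPM, beside shallower controls at 27.3 to 49.0 CPM. Nr1i3 stayed called only without control replicate 1 or 4 or DC371739 replicate 4, with an adjusted p of at most 0.113 otherwise. Alas1, the first enzyme of haem synthesis, stood at 212 ± 76.1 and 247 ± 73.3 CPM (adjusted p = 0.586).

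Of the core clock list, 7 of 11 genes had a row and were tested; Npas2, Per3, Nr1d2 and Rorb had none. Over all 14 libraries, where edgeR called 1.85% of all genes, Cry1, a repressor of the loop, fell, and 6 did not pass. The call of Cry1 (log2 fold change -1.40, adjusted p = 0.0387) was lost on leaving out any of 10 libraries (control replicates 1 to 5 and the DC371739 replicates 1, 2, 3, 4 and 6), with an adjusted p of at most 0.0928, and with library size alone as the scaling (0.0581). DESeq2 called Arntl and Cry1, both lower, and limma-voom these 2 and Nr1d1, higher. Those tools called 2.74% and 10.9% of all genes lower. Arntl, whose gene carries the ROR elements that Rora binds, fell with the class term (-1.05, adjusted p = 0.00565) and over the 11 shallower libraries (-1.19, adjusted p = 0.00126), as did Cry1 (-1.47, adjusted p = 0.00454, and -1.60, adjusted p = 0.00289). Over all 14 libraries Arntl did not pass (adjusted p = 0.0551).

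The other core clock genes passed in none of the 3 edgeR fits. Over all 14 libraries Nr1d1, the repressor that competes with Rora, stood at 0.77 (SE 0.29, adjusted p = 0.157), Cry2 at 0.38 (SE 0.15, adjusted p = 0.177) and Per1 at 1.24 (SE 0.49, adjusted p = 0.169). Per2 stood at 0.03 (SE 0.22) and Clock at -0.50 (SE 0.47). The signs of Per2 and Clock turned among the fits.

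**Figure D5:**
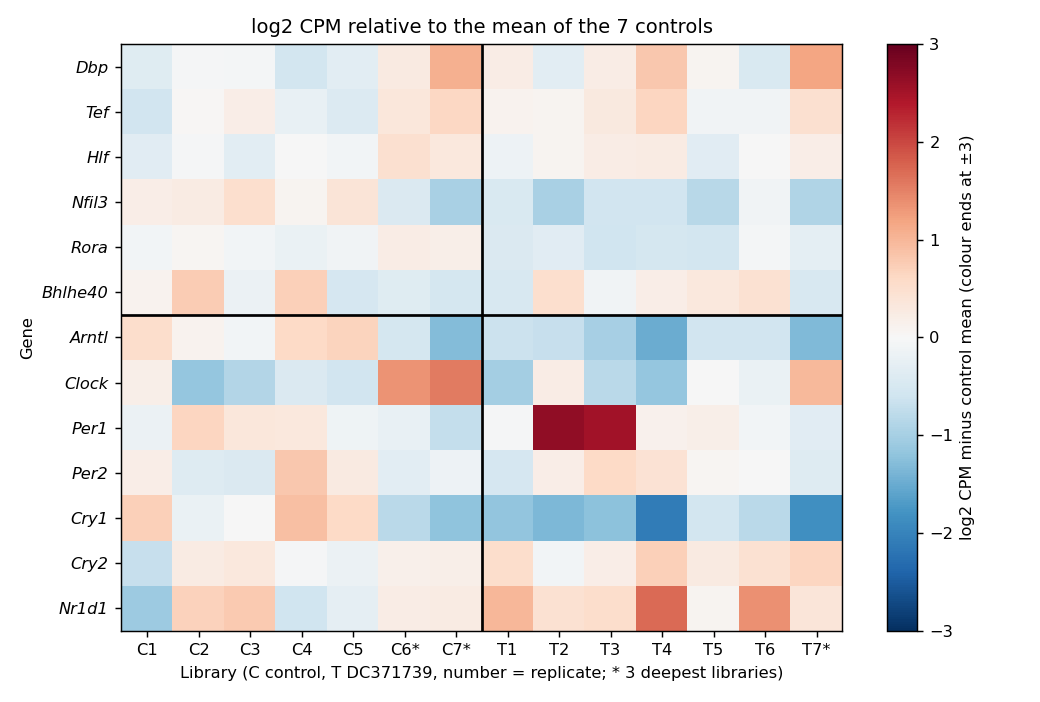
Log2 CPM of the 6 clock output factors and 7 core clock genes (rows) in each library (columns), as the difference from the mean of the 7 controls; colour ends at ±3. Nfil3, Arntl and Cry1 are blue in DC371739 libraries and also in the deeper controls C6 and C7, whereas Rora is blue in most DC371739 libraries and not in C6 and C7.

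Calls among further clock-linked genes are set beside the shares of all genes called either way. With edgeR these shares were 1.85% over all 14 libraries, 12.3% with the class term and 21.5% over the 11. DESeq2 called 4.18% of all genes higher and 2.74% lower, and limma-voom 11.6% and 10.9%. Among 13 tested genes that modify clock proteins none passed over all 14 libraries (2 at an unadjusted p under 0.05; 0 with DESeq2 and with limma-voom) or with the class term, and Fbxw11, a ubiquitin ligase subunit, rose over the 11 shallower libraries (0.24, adjusted p = 0.0374). Nampt, an enzyme of NAD synthesis under clock control, stood at -0.31 (adjusted p = 0.175), Nono at 0.22 (0.202) and the kinase Csnk1d at 0.23 (0.351) over all 14. Among 6 tested genes with known ROR-element or Nfil3 control none passed over all 14 libraries (1 at an unadjusted p under 0.05; 1 with DESeq2 and with limma-voom) or with the class term, and G6pc, glucose 6-phosphatase, rose over the 11 (1.20, adjusted p = 0.0471). Cyp8b1 stood at 0.17 (0.280) and Insig2 at -0.17 (0.353) over all 14. Among 6 tested outputs of E-box genes none passed over all 14 (2 at an unadjusted p under 0.05; 1 with DESeq2, 2 with limma-voom) or with the class term, and Lpin1 rose over the 11 (1.67, adjusted p = 0.0465). Lpin1 stood at 115 CPM in DC371739 replicate 2 and at 19.1 to 32.6 CPM in the other 5 shallower treated libraries, and without that replicate its log2 fold change was 0.99 (adjusted p = 0.00337). Noct, a rhythmic RNA-binding phosphatase, stood at -0.60 (0.204) and Wee1 at -0.22 (0.392) over all 14. Each of the 3 calls over the 11 was lost on leaving out some of the single libraries. That of Fbxw11 stayed only without control replicate 1 or DC371739 replicate 1 or 5, that of G6pc only without control replicate 2 or DC371739 replicate 1, and that of Lpin1 only without DC371739 replicate 1, 2 or 4; adjusted p was otherwise at most 0.0876, 0.103 and 0.105.

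Nfil3, Rora and Bhlhe40 are also made by immune cells, so markers of other liver cells were set beside them. In bulk tissue, fewer cells of a type and less RNA per cell cannot be told apart. Of 14 tested macrophage markers 3 rose over all 14 libraries with edgeR, where 1.24% of all genes did. With DESeq2 6 rose (4.18%) and with limma-voom 8 (11.6%). With the class term 7 rose, where 5.62% of all genes did, and 6 rose over the 11, where 21.5% were called either way. None fell, and the summed level of these markers was 766 to 1135 CPM in control and 846 to 1315 CPM in treated samples. Of 11 tested lymphocyte markers none rose over all 14 libraries with edgeR (3 at an unadjusted p under 0.05; 1 with DESeq2, 2 with limma-voom) and 2 did with the class term and over the 11, with a summed level of 15.0 to 28.3 and 19.8 to 39.5 CPM. None of 11 endothelial, 12 stellate or fibroblast and 6 cholangiocyte markers passed over all 14 libraries with edgeR (4, 4 and 0 at an unadjusted p under 0.05; 2, 2 and 0 with DESeq2 and 5, 4 and 0 with limma-voom), and 2, 1 and 0 rose with the class term. Over the 11, 5 endothelial and 2 stellate or fibroblast markers rose and 1 cholangiocyte marker fell. In that fit 21.5% of all genes were called either way and 10.5% lower. Endothelial markers summed to 201 to 310 CPM in control and 253 to 343 CPM with treatment, stellate or fibroblast markers to 252 to 369 and 323 to 526 CPM, and cholangiocyte markers to 23.0 to 39.5 and 27.8 to 50.1 CPM. No marker of these 5 lists with a row was at 0 in any library. The median of each of these 5 sums was higher with DC371739, where Nfil3 and Rora were lower, and the ranges overlapped. Such sums weigh abundant genes most: Marco averaged 281 CPM in control and 352 CPM in treated samples, and Col3a1 151 and 216 CPM. Over all 14 libraries 4 of 14 macrophage, 3 of 11 endothelial and 1 of 12 stellate or fibroblast markers had a negative log2 fold change. So did 1 of 11 lymphocyte and 1 of 6 cholangiocyte markers. The 3 endothelial ones were Stab1 (-0.05), Stab2 (-0.07) and Clec4g (-0.12). The 9 hepatocyte markers summed to 112020 to 147500 CPM in control (median 132440) and 111690 to 133870 CPM in treated samples (median 124490), with 0 called over all 14 libraries by edgeR (2 at an unadjusted p under 0.05; 1 with DESeq2 and 3 with limma-voom), 1 higher with the class term and 2 higher over the 11. Alb, by far the largest part of that sum, was below the control median of 107840 CPM in 7 of 7 treated libraries (log2 fold change -0.10, SE 0.09, adjusted p = 0.584). The highest treated library lay only just below it, at 107810 CPM. The part of these levels in the Nfil3 and Rora differences was not tested.

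The tables name no genome build for their coordinates. In them Nfil3 (ENSMAUG00000008018) lies on scaffold KB708133.1 from 875978 to 889416 on the + strand, and Rora (ENSMAUG00000018718) on KB708182.1 from 2485151 to 3190793 on the - strand. Dbp (ENSMAUG00000000757) lies on KB708302.1 from 1113949 to 1119261, Tef (ENSMAUG00000011211) on KB708136.1 from 4058644 to 4082754, Hlf (ENSMAUG00000011516) on KB708184.1 from 2811334 to 2866246 and Bhlhe40 (ENSMAUG00000009803) on KB708132.1 from 14840384 to 14846493. Counts cover summed exons of 1922 (Rora) to 5528 (Hlf) bases, and isoforms were not separated. No exon of another gene in the table overlapped an exon of the 6. The span of Rora held or touched 2 other genes.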

How the data were processed

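Liver RNA of 14 samples was sequenced. The submitters' processing notes name the tools featureCounts 2.0.0, HISAT2 2.2.1 and edgeR (no version). No source used here gives the build, annotation, strand or other settings. The deposited counts are whole numbers for each Ensembl gene, listed with its exon length. The authors' second table holds FPKM for 10023 genes and, per the file headers, the authors' log2 fold change and log2 mean CPM, and the authors' p-value and adjusted p-value. The authors' FPKM equal the count over length and over 1 constant per library.

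The test on counts was that of edgeR 4.0.16, R 4.3.3 (quasi-likelihood, robust, TMM, default filter with a minimum count of 10). In each fit p-values were adjusted by Benjamini-Hochberg over the genes it tested, calling those under 0.05. These were 12166 genes over the 14 libraries and 12249 over the 11 shallower ones. SE is the fold change over the square root of F; intervals are ± 1.96 SE. CPM use TMM-scaled totals, and log2 CPM a prior count of 2. Alternatives were other scalings and filters, DESeq2 1.42.0, limma 3.58.1 (voom, and log2 FPKM with pseudocounts of 1 and 0.1), a replicate block, a library class term, and libraries left out. Correlations used 100000 permutations within groups.

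The members and gene lists were chosen with earlier results of these data known. Besides the 6 factors, all core clock genes with a row, called genes and the 3 of smallest p in each further clock list, and the 2 genes most like each factor were named, but 1 listed gene is not reported here; Alas1, Fbxw11 and Alb were named after their values were seen. Same-group libraries all differed beyond sampling noise (chi-square per degree of freedom of at least 10.6 in 42 pairs). In simulated counts for the 14-library comparison (12166 genes, 200 changed, 4 of them removed by the filter), the test recovered 32 of 78 genes changed 1.5-fold, 46 of 57 changed 2-fold and 60 of 61 changed 4-fold, with 7 false among 145 calls. The simulated counts held no difference of depth class, so these rates may not hold for the real libraries.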

Additional observations from a re-analysis of the deposited data

Results flagged for a closer look

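Of 12 groups of 7 libraries (6 factors in each of the control and DC371739 groups), 1 held a library far from the rest by Dixon's criterion, which chance alone meets in about 1 group in 20. Dbp stood at 16.5 CPM in control replicate 7, and the gap to the next library was 0.626 of the whole control range, above the critical 0.568. That library is 1 of the 3 deepest.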

How the results depend on the processing

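Over all 14 libraries 0 factors and 225 genes were called. Factor calls were 2 with DESeq2, limma-voom with quality weights, the library class term and the 11 shallower libraries, where 842, 2739, 1499 and 2635 genes were called. No other scaling, filter or FPKM fit called a factor, and Dbp, Tef, Nfil3 and Rora kept their direction in all 27 alternatives on counts, FPKM and left-out libraries. The replicate block called 8 genes and 0 factors. Replicate pairs shared only a number, except that both replicates 7 were among the 3 deepest libraries. Deviations of same-numbered libraries correlated at -0.131 to 0.548 over the 7 pairs, highest for replicates 7. Among the controls only replicate 7 was most like the DC371739 library of its own number. Leaving out 1 library gave 25 to 1069 genes and 0 to 1 factors. For control replicates 1, 2, 3, 5 and 7 the gene count was 106, 73, 53, 63 and 542; for replicates 2, 3, 5, 6 and 7 of DC371739 it was 51, 25, 77, 25 and 1069. Within the 11 shallower libraries, an alternative added after the data were seen, it was 1624 to 2913 genes and 1 to 2 factors; the count of 2635 moved by over 1.5 times without control replicate 2 (1747) or 5 (1624). No pair of factors passed under any alternative of the correlations. The call of Cry1 over 14 libraries was also lost under the replicate block (adjusted p = 0.0705). Signs turned for 4 genes. The log2 fold change of Bhlhe40 was -0.064 with the class term and over the 11, -0.062 to 0.166 with 1 library left out of 14, and -0.215 to 0.091 with 1 left out of the 11. That of Hlf was -0.038 to 0.111 with 1 left out. Per2 was at -0.036 with the class term and -0.072 to 0.208 with 1 left out. Clock was at 0.04 with limma-voom and 0.11 over the 11. The causes were not tested. With 87 to 411 counts per library, Dbp is among the factors with the fewest counts.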

Other observations

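Per1, an E-box target of the clock that also responds acutely to glucocorticoid and cAMP, stood at 34.6 and 31.6 CPM in DC371739 replicates 2 and 3 and at 4.23 to 6.14 CPM in the other 5 DC371739 libraries, against 3.24 to 8.47 CPM in control samples; it was singled out after its values were seen. Dbp, which shares E-box control with Per1, stood at 6.30 and 9.14 CPM in those 2 libraries, within the range of the other 5 (5.69 to 18.1 CPM). DC371739 replicate 4 held the highest Dbp (13.8 CPM) and Tef (60.1 CPM) of the 11 shallower libraries and the highest Nr1d1 of all 14 (139 CPM), together with the lowest Cry1 (3.69 CPM) and Arntl (7.08 CPM).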
